A study of Mus musculus with 32 samples.

Results

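One week after human VEGF-A overexpression in β cells was switched off, 134 genes were called as changed in islet endothelial cells (ECs) and 181 in islet macrophages (MΦs) relative to mice never given doxycycline (Dox), and 4 of these genes were called in the same direction in both. The subject here is the difference of differences: the change from No Dox to 1wk WD in ECs minus the same change in MΦs, for each gene. It rests on 17 of the 32 samples, with 4 No Dox and 5 1wk WD samples of ECs and 4 of each of MΦs, and on the 13385 of 22850 genes whose mean score reached 20 in at least one group of each cell type. All mice carried MIP-GFP, RIP-rtTA, and TetO-VEGF-A. The rat insulin promoter drives the rtTA activator in β cells, so that Dox turns on human VEGF-A there, and the mouse insulin promoter marks the same cells with GFP. No Dox mice were never treated, whereas 1wk WD mice had received Dox and were sampled 1 week after its withdrawal (WD). ECs were sorted from dispersed islets by CD31 and MΦs by CD11b, and every sample pooled islets from several mice. The mice were adults, and with several mice in a pool the values describe pools rather than animals. Islet cells were stained for CD31 and CD11b together, but which EC and MΦ samples shared a pool is not given in the sources used here. Levels are scores, the authors' TMM-normalized read values as whole numbers from 1 upwards, so that they are not counts and do not carry a library's depth. A response is the log2 fold change of score + 1 from No Dox to 1wk WD.

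VEGF-A acts on ECs through VEGFR2 (*Kdr*) and its co-receptor neuropilin-1 (*Nrp1*), and islet capillaries depend on the VEGF-A that β cells make. Islet MΦs take up debris, present antigen, and release growth factors and cytokines, and circulating monocytes can join them. Signals such as interferon-γ, TGF-β, and Notch ligands can act on either cell type, so a gene may answer in both, in one, or in opposite directions.

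The sorted populations carried their own markers. *Itgam*, which encodes CD11b, ranged from 29382 to 45478 in No Dox MΦs and from 3 to 44 in No Dox ECs, and was too low in ECs to be tested. It stayed high in MΦs at 1wk WD, at 20309 to 29800, and low in ECs, at 5 to 11. *Pecam1*, which encodes CD31, ranged from 61523 to 75751 in No Dox ECs and from 997 to 1412 in No Dox MΦs, and at 1wk WD from 64455 to 79350 and from 1367 to 2212. Its response was 0.05 on the log2 scale in ECs and 0.47 in MΦs, a difference of -0.42 (SE 0.20, adjusted p = 0.216, limma). Some libraries also held transcripts of pancreatic acinar cells, and the 17 sums of scores ran from 31138639 to 53441769. The scores of 15 acinar markers summed to 13254182 in No Dox MΦ replicate 2 and 2295459 in No Dox MΦ replicate 4, against 31804 to 115516 in the other 2, and to 2020453 in No Dox EC replicate 2, against 74812 to 115505 in the other 3. At 1wk WD replicate 1 of each cell type stood above the rest, with sums of 72228 in ECs and 233381 in MΦs, against 743 to 1242 and 1857 to 2968. Fewer cells of a type and less RNA per cell cannot be told apart in such samples, and the part of acinar RNA in the results was not tested.

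**Figure D1:**
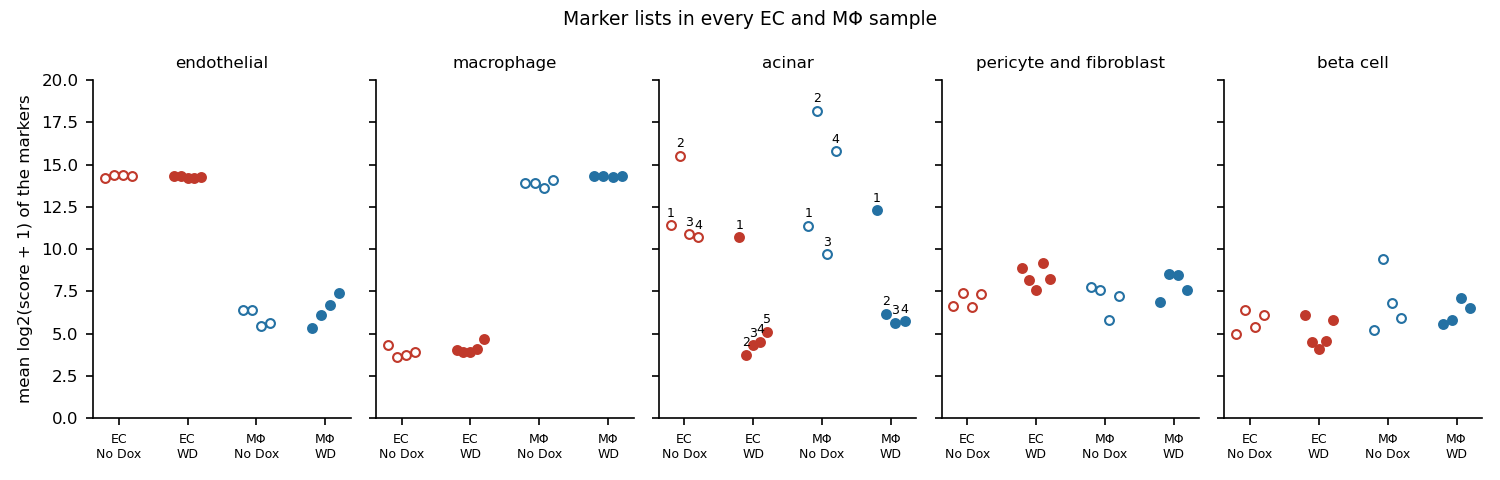
Mean log2(score + 1) of each marker list (vertical axis) in every EC (red) and MΦ (blue) sample, open at No Dox and filled at 1wk WD, with replicate numbers beside the acinar points. Endothelial and macrophage markers separate the cell types by about the same distance at both times, whereas acinar markers reach 18.18 in No Dox MΦ replicate 2 and 15.53 in No Dox EC replicate 2.

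The withdrawal response differed between ECs and MΦs for 219 genes, 1.64% of those tested. A gene was called at a log2 difference of 1 or more in size and a Benjamini-Hochberg adjusted p under 0.05 in limma. The EC response was the higher one for 127 genes (0.949%) and the lower one for 92 (0.687%). Taken alone, 134 genes were called in ECs (1.00%), 114 rising (0.852%) and 20 falling (0.149%), and 181 in MΦs (1.35%), 109 rising (0.814%) and 72 falling (0.538%). Called in both were 6 genes, 2 in opposite directions and 4 in the same direction, the latter 2.99% of the EC calls and 2.21% of the MΦ calls. The count of 4 was 25 without 1wk WD MΦ replicate 1, 12 without No Dox MΦ replicate 3 or 1wk WD EC replicate 1, and 2 without No Dox EC replicate 1, No Dox MΦ replicate 4, or 1wk WD MΦ replicate 2 or 4. Without both No Dox replicate 2 libraries 153 genes differed, 129 of them among the 219. On leaving out 1 library the count ran from 101 (without No Dox EC replicate 3) to 385 (without No Dox MΦ replicate 4). MΦ samples varied more than EC samples (median residual SD 0.341 and 0.273 on the log2 scale), and with the samples weighted by cell type 242 EC genes, 60 MΦ genes, and 174 differences were called. Fitted in one cell type alone, 220 genes were called in ECs and 29 in MΦs.

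The 219 genes fell into classes by fixed cut-offs. Opposite responses (0.463% of genes tested) had the difference called and at least 1.5-fold changes in opposite directions, and numbered 62: 40 higher in ECs and 22 higher in MΦs. One-sided responses (0.523%) had the difference called and one cell type called, and numbered 70: 28 EC rises, 1 EC fall, 25 MΦ rises, and 16 MΦ falls. A further 87 genes had the difference called but met neither rule. Shared responses, called in both cell types in the same direction, were 4 rises (0.0299%) and 0 falls in limma. Judged on the unadjusted p and the 2-fold cut-off alone, they were 33 rises and 44 falls. All 15 acinar markers were among these 44, with median log2 responses of -6.63 in ECs and -6.2 in MΦs.

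**Figure D2:**
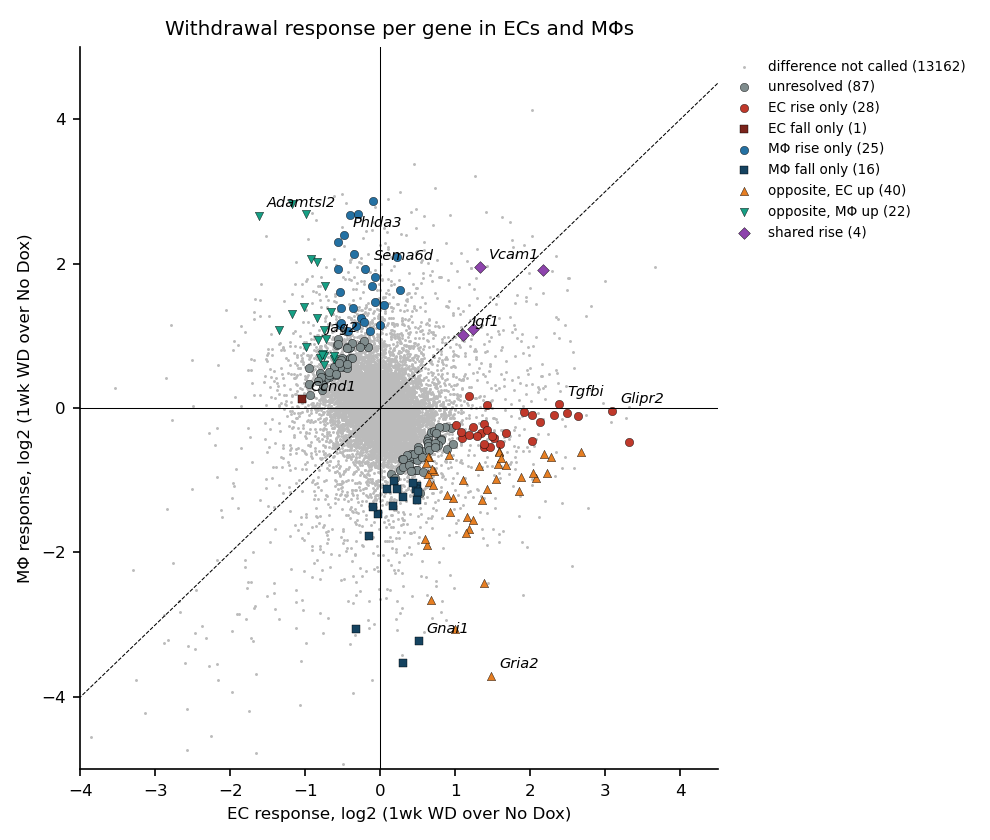
Log2 response of each of the 13385 genes tested in ECs (horizontal axis) and MΦs (vertical axis), coloured by class with the number of genes, and with a dashed line where both responses are equal; 40 genes lie outside the axes. Called differences lie mostly in the upper left and lower right, away from the line, and the 4 shared rises lie in the upper right.

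The 4 genes that rose in both cell types were *Vcam1*, *Igf1*, *D0H4S114*, and *Cxcl9*. *Vcam1*, an adhesion molecule that binds leukocyte integrins (mm9 chromosome 3), scored 207, 450, 315, and 224 in the No Dox ECs and 480, 598, 776, 1228, and 704 at 1wk WD. In MΦs it scored 4759, 3745, 7484, and 4822 at No Dox and 15724, 22425, 19505, and 20855 at 1wk WD. The groups did not overlap in either cell type, as for 10.5% of all genes in ECs and 9.13% in MΦs. Its log2 response was 1.33 in ECs (SE 0.26, adjusted p = 0.0129) and 1.95 in MΦs (SE 0.28, adjusted p = 0.00143), and the difference, -0.62, was not called (SE 0.38, adjusted p = 0.339). The EC call was lost without No Dox EC replicate 1 (adjusted p = 0.059).

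*Igf1*, a growth factor for many cell types, scored 3900, 6468, 6831, and 6088 in No Dox ECs and from 11405 to 13462 at 1wk WD, and in MΦs 2586, 5271, 3063, and 2793 at No Dox and 5298, 7037, 5838, and 8926 at 1wk WD. The lowest 1wk WD MΦ sample stood just above No Dox MΦ replicate 2, and the EC groups lay further apart. Its log2 response was 1.11 in ECs (SE 0.20, adjusted p = 0.00971) and 1.01 in MΦs (SE 0.21, adjusted p = 0.0175). The MΦ call stood near the cut-off and was kept in 25 of 32 settings, and was lost with samples weighted by cell type (adjusted p = 0.0532) and without No Dox MΦ replicate 1, 3, or 4 or 1wk WD MΦ replicate 2 or 4 (responses of 0.87 to 0.99). The EC call was lost without No Dox EC replicate 1, where the log2 response was 0.92.

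*D0H4S114*, also called Nrep, scored from 2233 to 3182 in No Dox ECs and from 4718 to 7693 at 1wk WD, and from 101 to 169 and from 218 to 346 in MΦs. Its log2 response was 1.24 in ECs (SE 0.19, adjusted p = 0.00277) and 1.09 in MΦs (SE 0.20, adjusted p = 0.00779), the latter 0.94 without No Dox MΦ replicate 1. *Cxcl9*, an interferon-γ-induced chemokine that attracts T cells, is named here after its values were seen, since its EC groups overlapped. It scored 26, 35, 104, and 30 in No Dox ECs and 245, 260, 274, 142, and 97 at 1wk WD, and rose from between 1413 and 3043 to between 4663 and 14455 in MΦs. The log2 responses of *Cxcl9* were 2.17 (SE 0.41, adjusted p = 0.0111) and 1.91 (SE 0.43, adjusted p = 0.0272), and the MΦ call was lost in 7 of 31 settings, among them those without No Dox MΦ replicate 4 or 1wk WD MΦ replicate 2, 3, or 4. No Dox levels of the 4 genes differed in order between the cell types: *Vcam1* and *Cxcl9* were over 8-fold higher in MΦs, *D0H4S114* over 8-fold higher in ECs.

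**Figure D3:**
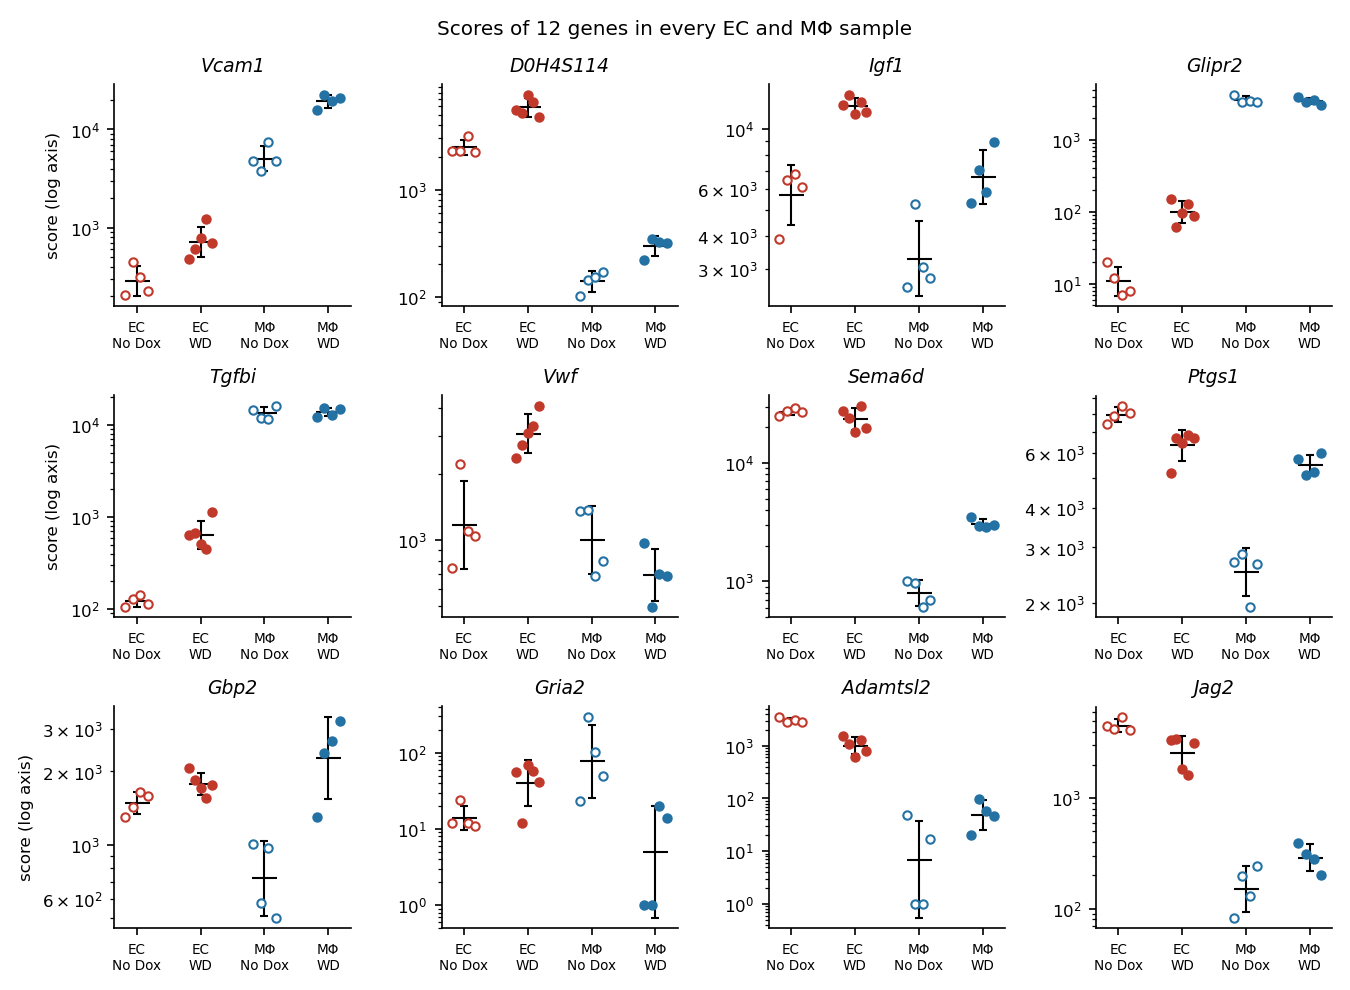
Score (vertical log axis) of 12 genes in every EC (red) and MΦ (blue) sample at No Dox (open) and 1wk WD (filled), with bars at the mean ± SD of log2(score + 1), n = 4 or 5. The first 3 genes rise in both cell types, *Glipr2*, *Tgfbi*, and *Vwf* rise in ECs, *Sema6d*, *Ptgs1*, and *Gbp2* rise in MΦs, and the last 3 have responses of opposite sign.

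Interferon-stimulated genes held 1 of the shared rises and 1 of the MΦ-only rises. Interferons act through STAT and IRF factors that bind GAS and ISRE sequences in promoters. All 36 genes of this list were tested: 1 rose in ECs and 4 in MΦs (*Cxcl9*, *Gbp2*, *Gbp7*, and *Iigp1*), against 0.852% and 0.814% of all genes. Positive responses were 24 in ECs and 36 in MΦs, with medians of 0.21 and 0.57 on the log2 scale against 0.00 for all genes in both. *Gbp2*, a guanylate-binding GTPase, was the one member with the difference called, with scores of 1003, 578, 971, and 499 in No Dox MΦs and 1304, 2375, 2671, and 3225 at 1wk WD, against 1301 to 1640 and 1553 to 2063 in ECs. Its MΦ response of 1.64 (SE 0.25, adjusted p = 0.00246) exceeded the EC response of 0.26 by 1.38 (SE 0.34, adjusted p = 0.0387), and the call was lost on leaving out any one of 12 of the 17 libraries (differences of -1.44 to -1.20). *Iigp1*, an immunity-related GTPase, rose from between 128 and 399 to between 587 and 1481 in MΦs, with a log2 response of 1.90 (SE 0.28, adjusted p = 0.00217), and its EC samples also did not overlap (2485 to 3339 and 4255 to 4950), at 0.69 (SE 0.27, adjusted p = 0.207). How the counting divided reads between similar members of the *Gbp* family is not given in the sources used here.

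The promoters of 3 of these risers are shown because *Gbp2*, the member with the difference called, and *Gbp7* rose in MΦs and *Cxcl9* in both cell types. Each line gives the 250 bases before the start site from RefSeq on GRCm38.p6, a later build than the mm9 of the scores, and capitals mark matches, on either strand, to an ISRE pattern (GAAA and GAAA with 2 bases between) or a GAS pattern (TTCNNNGAA).
Gbp2 (chr3:142620413-142620662, plus strand): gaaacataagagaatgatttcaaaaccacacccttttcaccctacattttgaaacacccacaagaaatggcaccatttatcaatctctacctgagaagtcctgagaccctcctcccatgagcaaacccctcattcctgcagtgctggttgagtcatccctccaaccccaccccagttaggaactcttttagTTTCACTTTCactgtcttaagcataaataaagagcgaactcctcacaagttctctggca
Gbp7 (chr3:142530086-142530335, plus strand): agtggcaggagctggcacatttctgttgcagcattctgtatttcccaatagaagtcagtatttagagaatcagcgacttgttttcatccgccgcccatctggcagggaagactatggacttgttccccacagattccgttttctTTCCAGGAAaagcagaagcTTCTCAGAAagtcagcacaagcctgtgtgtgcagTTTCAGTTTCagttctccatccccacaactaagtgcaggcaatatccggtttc
Cxcl9 (chr5:92328080-92328329, minus strand): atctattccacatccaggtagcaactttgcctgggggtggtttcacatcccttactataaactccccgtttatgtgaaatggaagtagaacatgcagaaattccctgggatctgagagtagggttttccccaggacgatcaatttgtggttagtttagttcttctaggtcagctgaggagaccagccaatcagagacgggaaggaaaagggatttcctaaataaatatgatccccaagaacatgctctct
*Gbp2* held 1 ISRE match, *Gbp7* held 1 ISRE and 2 GAS matches, and *Cxcl9*, the shared riser, held no match to either pattern in this window. Exact patterns of fixed length miss sites that differ from them, so a missing match does not show a missing site. The ISRE pattern occurred in 2.98% of 32851 promoters of this length and the GAS pattern in 7.02%. Among the 26 list genes with a promoter in the table, 16 held the ISRE pattern and 8 the GAS pattern. A kappaB pattern, also searched on both strands, was in 4.65% of all promoters and 6 of the 26, and in none of the 3 printed.

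Among the 28 genes that rose in ECs with no call in MΦs were *Glipr2*, *Leprel1*, and *Negr1*. *Glipr2* scored 20, 12, 7, and 8 in No Dox ECs and 150, 61, 97, 128, and 88 at 1wk WD, and from 3307 to 4261 and from 3067 to 3920 in MΦs. Its EC response was 3.09 on the log2 scale (SE 0.28, adjusted p = 9.89e-06), its MΦ response -0.05 (SE 0.29), and the difference 3.14 (SE 0.40, adjusted p = 0.000835). *Leprel1*, a collagen prolyl hydroxylase, scored 140, 268, 112, and 251 in No Dox ECs and 906, 536, 1152, 2107, and 896 at 1wk WD, a difference of 2.55 (SE 0.50, adjusted p = 0.0125). *Negr1*, a neuronal adhesion molecule, had a difference of 2.49 (SE 0.47, adjusted p = 0.0108). With a pseudocount of 20 the differences of *Glipr2* and *Negr1* were 1.99 and 1.55.

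*Tgfbi*, a matrix protein induced by TGF-β, rose in ECs. It scored 105, 130, 144, and 114 at No Dox and 641, 671, 511, 447, and 1125 at 1wk WD in ECs, and from 11506 to 16232 and from 12353 to 15344 in MΦs. Its EC response was 2.39 (SE 0.20, adjusted p = 6.78e-06), its MΦ response 0.05 (SE 0.21), and the difference, 2.33 (SE 0.30, adjusted p = 0.000811), was called in all 31 settings. *Vwf*, the von Willebrand factor stored in endothelial granules, scored 744, 2220, 1101, and 1039 in No Dox ECs and 2360, 2725, 3065, 3327, and 4111 at 1wk WD. Its EC response was 1.38 (SE 0.29, adjusted p = 0.0165) and its MΦ response -0.53 (SE 0.30), a difference of 1.92 (SE 0.42, adjusted p = 0.0227) that was not called without No Dox EC replicate 3 (adjusted p = 0.0554) or without 1wk WD MΦ replicate 2 (adjusted p = 0.052). *Met*, the HGF receptor, also stood in this class, with a difference of 1.51 (SE 0.29, adjusted p = 0.0115).

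At No Dox 21 of the 28 EC-only risers were at least 8-fold higher in MΦs than in ECs (5.63% of all genes), and 14 were at least 8-fold higher in β cells than in ECs (6.54%). The No Dox EC scores enter both these ratios and the rise, so the counts are a description, and 5 of the 28, *Glipr2* and *Negr1* among them, reached the minimum mean of 20 in ECs at 1wk WD alone. Macrophage markers in ECs summed to 5693 to 6549 at No Dox and 3941 to 5813 at 1wk WD over 15 genes, with mean log2 scores of 3.62 to 4.33 and 3.92 to 4.67. Of the 5 high enough to test, 0 were called in ECs in limma, with 1 lower at an unadjusted p under 0.05. Of all genes, 8.78% were higher and 7.55% lower in ECs at that threshold, and 8.97% and 10.3% in MΦs. β cell markers summed to 1553 to 3758 and to 1138 to 4174. Pericyte and fibroblast markers were higher at 1wk WD without overlap: their mean log2 score was 6.6 to 7.38 in No Dox ECs and 7.59 to 9.21 at 1wk WD, their sum 6897 to 15299 and 19795 to 79922, and 4 of 13 rose in ECs (*Rgs5*, *Abcc9*, *Col1a2*, and *Col3a1*), against 0.852% of all genes. In MΦs 0 of the 13 were called in limma, with 5 higher at an unadjusted p under 0.05. *Rgs5*, a pericyte regulator of G protein signaling, scored from 4449 to 9981 and then from 14734 to 63203. The part of such cells in the EC rises was not tested.

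*Ccnd1*, which encodes cyclin D1, was the one gene classed as falling in ECs alone. It scored 6333, 5715, 6187, and 4867 in No Dox ECs and 4052, 3978, 2113, 2779, and 1748 at 1wk WD, with no overlap, and from 5718 to 7340 and from 6602 to 7142 in MΦs. The EC response was -1.05 (SE 0.20, adjusted p = 0.0108), and the difference of -1.17 (SE 0.28, adjusted p = 0.0365) was lost on leaving out any one of 9 of the 17 libraries (differences of -1.18 to -1.07).

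The largest differences among MΦ-only rises under the naming rule were those of *Phlda3*, *Exoc3l2*, *F7*, and *Snai2*. All 4 had No Dox MΦ means under the minimum of 20 (9.25, 3.75, 16.8, and 5) and were tested through their 1wk WD means (44.8, 20.5, 74, and 21.5). In this class that held for 6 of the 25 genes. *Phlda3*, a p53 target that inhibits Akt, scored 6, 12, 2, and 17 in No Dox MΦs and 68, 36, 34, and 41 at 1wk WD, against 566 to 610 and 223 to 721 in ECs, and its difference was -2.88 (SE 0.64, adjusted p = 0.0256), with adjusted p of 0.0505 to 0.0633 without No Dox EC replicate 2, 3, or 4. *Exoc3l2* scored 6, 6, 1, and 2 in No Dox MΦs and 31, 12, 18, and 21 at 1wk WD, against 12217 to 14385 and 7508 to 10061 in ECs, with a difference of -2.87 (SE 0.47, adjusted p = 0.00468). *F7*, coagulation factor VII, and *Snai2*, a repressor of epithelial genes, differed by -2.49 (SE 0.53, adjusted p = 0.0202) and -2.48 (SE 0.51, adjusted p = 0.0163). With a pseudocount of 20 in place of 1 the 4 differences were -1.61, -1.32, -1.79, and -1.09, and that of *Snai2* was not called (adjusted p = 0.0513). Each of the 4 was low in MΦs and far higher in ECs at both times.

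Among one-sided MΦ rises with scores well above the lowest value in both cell types were *Ptgs1* and *Sema6d*, each called in all 31 settings. *Ptgs1*, which encodes cyclooxygenase-1, scored 2697, 2857, 1934, and 2666 in No Dox MΦs and 5728, 5124, 5228, and 5994 at 1wk WD, and 7443 to 8511 and 5189 to 6857 in ECs. The MΦ response was 1.13 (SE 0.12, adjusted p = 0.000149), the EC response -0.33 (SE 0.12, adjusted p = 0.17), and the difference -1.46 (SE 0.17, adjusted p = 0.000406). *Sema6d*, a transmembrane semaphorin, scored 1007, 970, 604, and 694 in No Dox MΦs and 3491, 2936, 2855, and 2974 at 1wk WD, and 24745 to 29396 and 18269 to 30579 in ECs. Its MΦ response was 1.93 (SE 0.17, adjusted p = 1.15e-05) and the difference -2.13 (SE 0.24, adjusted p = 0.000329). *Il18bp*, a decoy for interleukin-18, and *Cd38*, an NAD-consuming ectoenzyme, rose by 1.38 (SE 0.20, adjusted p = 0.00144) and 1.43 (SE 0.18, adjusted p = 0.000676) in MΦs, with EC responses of -0.36 and 0.05. *Met*, *Il18bp*, and *Cd38* were chosen after their values were seen.

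Of the 25 MΦ-only risers, 15 were at least 8-fold higher in ECs at No Dox (6.63% of all genes), a ratio that shares its No Dox MΦ scores with the rise. Endothelial markers in MΦs summed to 3428 to 4725 at No Dox and 3740 to 5150 at 1wk WD, with mean log2 scores of 5.48 to 6.43 and 5.31 to 7.43. Of the 14 tested, 0 were called in MΦs in limma, against 1.35% of all genes. At an unadjusted p under 0.05, 3 were higher, against 8.97% of all genes, and the median response was 0.31. *Cdh5*, VE-cadherin, lay between 2 and 77 and between 11 and 132 in MΦs, and *Kdr* between 76 and 236 and between 75 and 279. The part of EC RNA in these rises was not tested. Among genes whose mean scores over No Dox and 1wk WD together lay within 8-fold between the cell types, 138 differences were called. Of these genes 34 had one-sided, 42 opposite, and 1 shared response.

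The MΦ-only falls were led by *Olfr458*, *Gnai1*, *Fam189a2*, and *Zfp599*, with differences of 3.84 (SE 0.93, adjusted p = 0.0365), 3.73 (SE 0.72, adjusted p = 0.012), 2.73 (SE 0.70, adjusted p = 0.0448), and 1.76 (SE 0.44, adjusted p = 0.0391). *Gnai1*, an inhibitory G protein subunit, scored 68, 935, 206, and 236 in No Dox MΦs and 18, 27, 42, and 17 at 1wk WD, with the highest score in the library of most acinar RNA. Without that library the differences of *Gnai1* and *Fam189a2* were 3.07 (adjusted p = 0.00534) and 2.44 (adjusted p = 0.0588). Further falls in this class included *Rasgrp3* and *Plcb1*, signaling enzymes that act downstream of receptors, by -1.02 (SE 0.17, adjusted p = 0.00426) and -1.47 (SE 0.23, adjusted p = 0.00316) in MΦs. In ECs these 2 genes, also chosen after their values were seen, had responses of 0.19 and -0.03. The calls of *Olfr458*, *Fam189a2*, and *Zfp599* were lost on leaving out any one of 10, 13, and 11 of the 17 libraries. With a pseudocount of 20 the differences of *Olfr458* and *Fam189a2* were 2.02 and 1.88, the latter not called (adjusted p = 0.0641), and the MΦ fall of *Zfp599* was called in 18 of 31 settings.

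The largest opposite differences under the naming rule were those of *Gria2*, *Adamtsl2*, *Maob*, and *Vipr2*. Their EC responses were 1.47, -1.62, 0.99, and 1.38, and none was called in limma (adjusted p = 0.385, 0.283, 0.41, and 0.24). The MΦ responses were -3.72, 2.67, -3.06, and -2.42, and that of *Adamtsl2* was not called (adjusted p = 0.0706). EC groups overlapped for *Gria2*, *Maob*, and *Vipr2*. *Gria2* and *Maob* reached the minimum mean of 20 in ECs at 1wk WD alone (14.8 and 18.2 at No Dox, 46.8 and 39.2 at 1wk WD), as did *Adamtsl2* in MΦs (17 and 55.5). *Gria2*, a glutamate receptor subunit, scored 12, 24, 12, and 11 in No Dox ECs and 55, 12, 69, 57, and 41 at 1wk WD, and 23, 297, 102, and 50 in No Dox MΦs and 1, 1, 20, and 14 at 1wk WD. Its difference was 5.19 (SE 1.20, adjusted p = 0.0298), and 4.54 (adjusted p = 0.0414) without No Dox MΦ replicate 2, the sample of its highest score. The call of *Gria2* was lost on leaving out any one of 7 other libraries (adjusted p up to 0.0713), and that of *Vipr2* without No Dox EC replicate 3 (adjusted p = 0.0604). The MΦ fall of *Vipr2* was called in 18 of 31 settings. *Maob*, monoamine oxidase B, and *Vipr2*, a receptor for vasoactive intestinal peptide, differed by 4.05 (SE 0.86, adjusted p = 0.0196) and 3.80 (SE 0.83, adjusted p = 0.0233), and by 3.48 and 3.23 without No Dox MΦ replicate 2. β cell markers summed to 57778 in that library, against 5424 to 10604 in the other No Dox MΦ samples. *Adamtsl2*, a secreted protein that binds microfibrils, scored 3569, 2876, 3105, and 2865 in No Dox ECs and 1512, 1072, 620, 1275, and 789 at 1wk WD, and 49, 1, 1, and 17 and 20, 97, 58, and 47 in MΦs. Its difference of -4.29 (SE 1.07, adjusted p = 0.0399) rested on low MΦ scores that overlapped, and was lost on leaving out any one of 12 of the 17 libraries. With a pseudocount of 20 the differences of *Gria2*, *Adamtsl2*, *Maob*, and *Vipr2* were 2.78, -2.71, 2.19, and 2.91.

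Other opposite genes were well above the lowest scores in both cell types. *Gas6*, the ligand of the TAM receptors with which MΦs clear dead cells, had log2 responses of -0.74 in ECs (SE 0.25, adjusted p = 0.155) and 1.69 in MΦs (SE 0.27, adjusted p = 0.00346), a difference of -2.43 (SE 0.37, adjusted p = 0.00298). *Ramp3* and *Dach1* were the 2 genes called in both cell types in opposite directions. *Ramp3*, a partner of the adrenomedullin receptor, fell in ECs by -1.18 (SE 0.28, adjusted p = 0.0352) and rose in MΦs by 1.30 (SE 0.29, adjusted p = 0.0271). *Stard13* and *Dach1*, a transcription factor, differed by 2.09 (SE 0.21, adjusted p = 0.000152) and 2.78 (SE 0.37, adjusted p = 0.000907) with the EC response the higher. These 4 genes fall outside the rule for named genes and were chosen after their values were seen.

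Of 34 genes of the VEGF and tip cell list tested, 0 were called in ECs in limma and 3 rose in MΦs, against 1.00% called in ECs and 0.814% rising in MΦs among all genes. At an unadjusted p under 0.05, 2 were higher and 7 lower in ECs at 1wk WD, against 8.78% and 7.55% of all genes. The difference was called higher in ECs for 1 and lower for 2, against 0.949% and 0.687% of all genes. The list's median response was -0.18 in ECs and 0.21 in MΦs. *Kdr* scored 101250, 92107, 105159, and 96683 in No Dox ECs and 61402, 58413, 39326, 51315, and 44022 at 1wk WD, with no overlap. Its EC response of -0.98 (SE 0.34, adjusted p = 0.156) and the difference of -1.26 (SE 0.49, adjusted p = 0.145) were not called. The fit takes a common spread per gene from both cell types. The standard errors of *Kdr* thus include its low MΦ scores, 76 to 236 at No Dox and 75 to 279 at 1wk WD. The same holds for other genes of the list. *Nrp1* scored 76483, 81933, 90241, and 78364 and then from 42710 to 58640 in ECs, and its difference of -1.15 (SE 0.20, adjusted p = 0.00616) was called. *Vegfa*, the mouse gene, which does not measure the human transgene, had responses of -0.29 and -0.34 and a difference of 0.04 (SE 0.41, adjusted p = 0.965).

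*Jag1* and *Jag2* encode Notch ligands. *Jag1* scored 2239, 2868, 2586, and 2650 in No Dox ECs and from 3111 to 4216 at 1wk WD, and 2654, 2083, 2602, and 3129 in No Dox MΦs and from 1474 to 1689 at 1wk WD, without overlap in either. Its difference of 1.15 (SE 0.18, adjusted p = 0.00298) was called in all 31 settings, while neither response alone reached 2-fold. *Jag2* had a difference of -1.77 (SE 0.43, adjusted p = 0.0365), with responses of -0.83 (SE 0.30, adjusted p = 0.171) in ECs and 0.94 (SE 0.31, adjusted p = 0.111) in MΦs, and the call was lost on leaving out any one of 10 of the 17 libraries (adjusted p up to 0.0882). The 3 members of this list that rose in MΦs, *Aplnr*, *Unc5b*, and *Sox18*, had responses of 2.72 (SE 0.58, adjusted p = 0.0195), 1.35 (SE 0.27, adjusted p = 0.0134), and 2.05 (SE 0.53, adjusted p = 0.0466). All 3 were low in MΦs, with *Aplnr* at 2 to 54 and 60 to 208 against 11201 to 20068 in ECs.

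Of 39 matrix proteins tested, 4 rose in ECs (*Col1a2*, *Col3a1*, *Col6a3*, and *Bgn*) and 3 others in MΦs (*Lamb2*, *Sparcl1*, and *Postn*), against 0.852% and 0.814% of all genes, and the medians were 0.25 and 0.83. The EC risers are collagens and a proteoglycan of fibroblasts and pericytes, with EC responses of 2.31, 2.49, 2.998, and 1.82 and MΦ responses of 1.04, 1.64, 1.75, and 0.97, which were not called. Their differences, from 0.85 to 1.27, were not called, so that a difference between the cell types was not shown for them. *Lamb2*, a laminin chain of vascular basement membranes, was the one member with the difference called, at -2.15 (SE 0.38, adjusted p = 0.00763). It scored 32, 58, 17, and 46 in No Dox MΦs and 116, 96, 126, and 99 at 1wk WD, against 6675 to 8139 and 3492 to 6047 in ECs.

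Of 40 genes that remodel the matrix, 2 rose in ECs (*Mmp2* and *Timp2*), and in MΦs 2 rose (*Mmp23* and *Adamts7*) and 1 fell (*Mmp12*), against 0.852%, 0.814%, and 0.538% of all genes. The MΦ rise of *Adamts7* was called in 14 of 31 settings. *Mmp12*, the macrophage elastase, scored 7315, 6793, 9475, and 6070 in No Dox MΦs and 2624, 2983, 2433, and 5501 at 1wk WD, a response of -1.19 (SE 0.27, adjusted p = 0.0274). *Timp2*, an inhibitor of metalloproteinases, rose in ECs by 1.10 (SE 0.20, adjusted p = 0.00971). The difference was called for *Adamts7*, at -1.504 (SE 0.37, adjusted p = 0.0365), and for *Tgm2*, a matrix cross-linking transglutaminase, at -1.13 (SE 0.29, adjusted p = 0.0472). Each of these 2 calls was lost on leaving out any one of 11 of the 17 libraries.

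Of 33 TGF-β and BMP pathway genes tested, 1 rose (*Tgfbi*) and 2 fell (*Smad6* and *Smad7*, the inhibitory Smads) in ECs, and 1 rose in MΦs (*Ltbp4*), against 0.852%, 0.149%, and 0.814% of all genes. *Smad6* scored 15257, 10098, 10503, and 12981 at No Dox and from 3358 to 6177 at 1wk WD, a response of -1.31 (SE 0.27, adjusted p = 0.0154), and *Smad7* responded by -1.03 (SE 0.21, adjusted p = 0.0142). Their MΦ responses were -0.82 and -0.24, and the differences were not called. *Smad1*, a BMP effector, scored 7023, 6609, 6883, and 6893 in No Dox ECs and from 8804 to 14062 at 1wk WD, and its difference of 1.23 (SE 0.19, adjusted p = 0.00298) was called in all 31 settings. *Ltbp4*, which stores latent TGF-β in the matrix, had a difference of -1.41 (SE 0.36, adjusted p = 0.0474), lost on leaving out any one of 13 of the 17 libraries.

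Of 31 lysosome and lipid handling genes, 1 rose in ECs (*Abca1*, a cholesterol exporter) and 1 in MΦs (*Slc40a1*, the iron exporter ferroportin), against 0.852% and 0.814% of all genes. The difference was called lower in ECs for 2, against 0.687% of all genes, *Lamp1* at -1.09 (SE 0.22, adjusted p = 0.0154) and *Stab1* at -1.29 (SE 0.22, adjusted p = 0.00569), the latter under 2-fold with GC content regressed out, alone (-0.98) and with length and span (-0.94). *Lamp1*, a lysosomal membrane protein, came just under 2-fold without No Dox MΦ replicate 3 or 1wk WD EC replicate 4 (-0.98 and -0.99). *Stab1*, a scavenger receptor, scored 21957, 19680, 14343, and 21175 in No Dox MΦs and 37268, 35800, 32549, and 36679 at 1wk WD, and 6874 to 7173 and 4018 to 7100 in ECs. Of 13 alternative activation genes tested, *Il10* and *Ptgs1* rose in MΦs (0.814% of all genes), and 0 were called in ECs in limma (1.00% of all genes). At an unadjusted p under 0.05, 1 was higher and 2 were lower in ECs, against 8.78% and 7.55% of all genes. *Il10*, an anti-inflammatory cytokine, scored 2374, 2127, 3243, and 1032 in No Dox MΦs and 4567, 9107, 6044, and 4837 at 1wk WD, a response of 1.54 (SE 0.32, adjusted p = 0.0153) against 0.55 (SE 0.30) in ECs.

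Other response lists held called differences too, all lower in ECs, against 0.687% of all genes: 1 of 21 integrins, 1 of 28 growth factors, 1 of 20 antigen presentation genes, 1 of 30 glycolysis and hypoxia genes, 1 of 30 immediate early genes, 2 of 17 p53 targets, 1 of 14 glucocorticoid targets, and 3 of 33 axon guidance genes. Of 14 endothelial markers tested, 1 (*Vwf*) was called higher in ECs, against 0.949% of all genes, and 0 lower. *Itga9*, an integrin subunit that binds tenascin and VCAM-1, differed by -1.17 (SE 0.15, adjusted p = 0.000866), with scores of 4284 to 4393 and 2502 to 3139 in ECs and 7551 to 10335 and 11906 to 14556 in MΦs, and was called in all 31 settings. *Grn*, a secreted growth factor also found in lysosomes, *Psmb8*, an immunoproteasome subunit, and *Sema7a*, a semaphorin anchored to the membrane, differed by -1.07 (SE 0.22, adjusted p = 0.0152), -1.13 (SE 0.19, adjusted p = 0.0049), and -1.18 (SE 0.30, adjusted p = 0.0405). *Cdkn1a*, the p53 target p21, and *Slc2a1*, the glucose transporter GLUT1, differed by -1.51 (SE 0.38, adjusted p = 0.0441) and -1.10 (SE 0.27, adjusted p = 0.0347). *Ier3*, an immediate early gene, rose in MΦs by 1.47 (SE 0.26, adjusted p = 0.00595) with an EC response of -0.07, and the difference was -1.55 (SE 0.35, adjusted p = 0.0291). With GC content, length, and span regressed out, the difference of *Ier3* was -0.997 and was not called. On leaving out 1 library the calls of *Cdkn1a*, *Slc2a1*, *Sema7a*, and *Ier3* were lost for 10, 10, 13, and 5 of the 17, whereas *Psmb8* kept its call for all 17 but lost it with GC content regressed out, alone (-0.87) and with length and span (-0.67, adjusted p = 0.0556). *Grn* came under 2-fold without No Dox EC replicate 3, No Dox MΦ replicate 3, or 1wk WD EC replicate 4 (down to -0.96), and in the same GC settings (-0.80 and -0.71). Of the axon guidance genes 0 were called in ECs in limma, against 1.00% of all genes (1 higher and 7 lower at an unadjusted p under 0.05, against 8.78% and 7.55%), while 3 rose (*Sema6d*, *Unc5b*, and *Efnb2*) and 3 fell (*Plxna2*, *Robo2*, and *Ntn4*) in MΦs, against 0.814% and 0.538% of all genes.

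**Figure D4:**
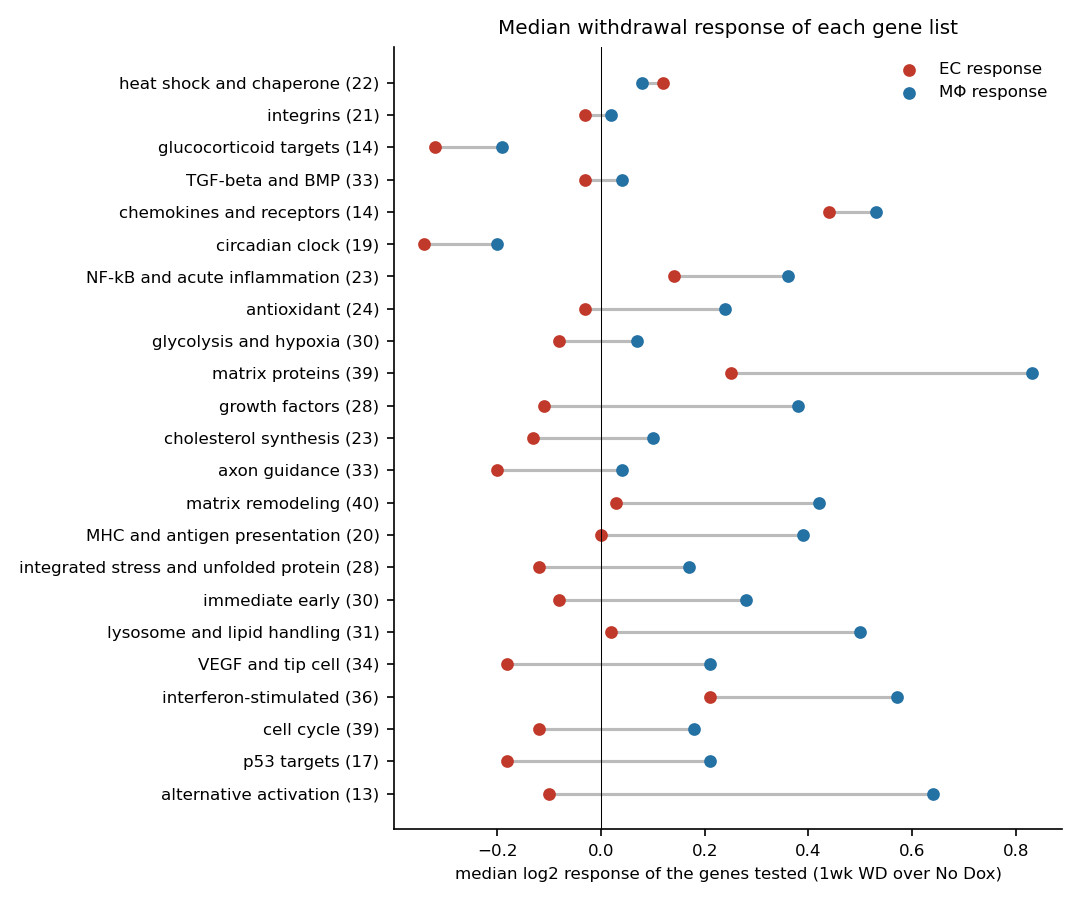
Median log2 response of the genes tested in each of 23 response lists (horizontal axis) in ECs (red) and MΦs (blue), with the number of genes tested in parentheses and the lists ordered by their median difference. The MΦ median lies above the EC median for most lists, by most for alternative activation genes, -0.10 in ECs and 0.64 in MΦs.

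The responses of the cell types followed the base composition and length of genes in opposite directions. Across genes, which are not independent replicates, the EC response fell with GC content (Spearman correlation -0.35) and the MΦ response rose with it (0.24). With gene span the signs were the reverse, 0.20 and -0.31. In the lowest of 10 equal bins of GC content (median 40.2%) the median response was 0.19 in ECs and -0.17 in MΦs, and in the highest bin (59.9%) it was -0.24 and 0.14. The 40 opposite genes with the EC response higher had a median GC content of 46.9% and a median span of 149213.5 bases, and the 22 with the MΦ response higher 56.5% and 9523.5 bases, against 50.3% and 23610 bases for all genes. Samples of one group also differed in this: the correlation of a sample's deviation with GC content ran from -0.45 to 0.18 in 1wk WD ECs and from -0.36 to 0.12 in No Dox MΦs. In 1wk WD ECs replicates 3 and 4 were negative (-0.26 and -0.45), and the others ran from 0.05 to 0.18. In No Dox MΦs the lowest value was that of replicate 3. The range was 0.2 to 0.29 in No Dox ECs and 0.05 to 0.24 in 1wk WD MΦs.

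**Figure D5:**
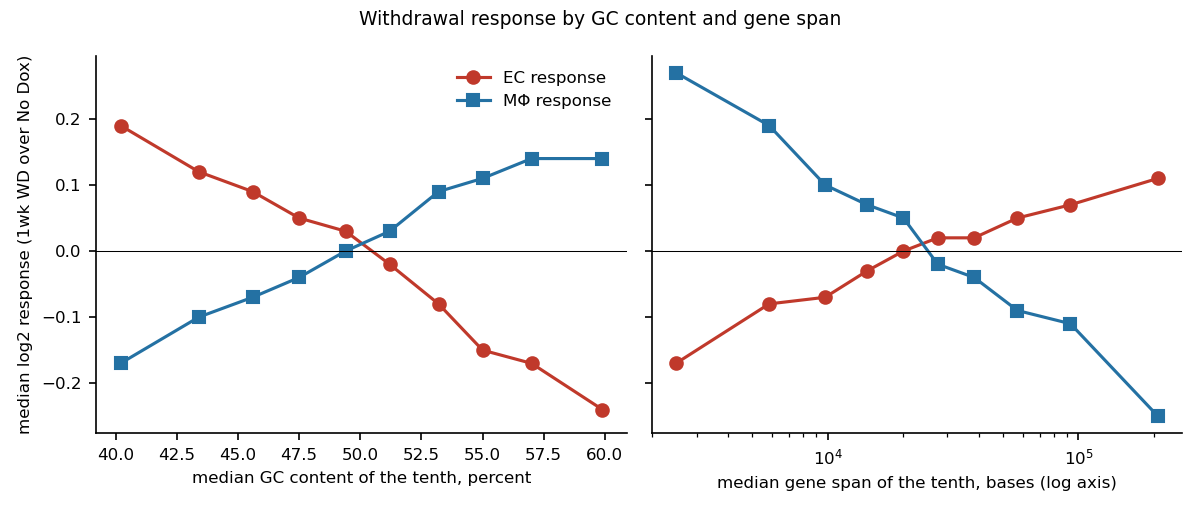
Median log2 response in ECs (red) and MΦs (blue) of the genes tested in 10 equal bins, by GC content of the exons (left) and by gene span on a log axis (right). The lines cross: from the lowest to the highest bin of GC content the EC median goes from 0.19 to -0.24 and the MΦ median from -0.17 to 0.14, and with gene span the order is turned round.

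With GC content, transcript length, and gene span regressed out of each sample within its cell type, 179 differences were called, of which 116 were among the 219, now 84 higher and 95 lower in ECs. The class was kept by 15 of the 28 EC rises, 18 of the 25 MΦ rises, 9 of the 16 MΦ falls, 17 of the 40 opposite genes with the EC response higher, 13 of the 22 with the MΦ response higher, and 3 of the 4 shared rises, and not by *Ccnd1* (difference -0.96, adjusted p = 0.0844). *Igf1* was the shared gene that lost its EC call, at 0.81 (adjusted p = 0.0643). *Negr1* (1.38, adjusted p = 0.168) and *Ier3* (-0.997, under 2-fold) were no longer called. *Cdkn1a*, *Grn*, *Ltbp4*, *Psmb8*, *Sema7a*, *Slc2a1*, *Stab1*, and *Tgm2* lost their calls both with GC content alone regressed out and with length and span. *Tgfbi*, *Sema6d*, *Ptgs1*, *Jag1*, *Smad1*, and *Itga9* were called in all 31 settings, and *Glipr2* in the 30 in which it was tested.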

How the data were processed

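RNA of sorted ECs and MΦs was amplified with the NuGEN Ovation kit and sequenced as 50-bp paired reads. The authors aligned reads to mm9 with TopHat2 (version 2.0, submitters' processing notes) and deposited TMM-normalized values made in Avadis NGS, rounded to whole numbers with a lowest value of 1. These scores are a normalized score, not counts, so depth is unknown and no counting interval was given. The annotation version is not given in the sources used here, nor is how reads shared by paralogs were counted. Samples were named from the labels, and 6 columns of samples outside this series were not used. Symbols turned into dates (25) were restored, and 252 genes share a symbol with another.

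Genes with a mean score of 20 or more in at least one group of each cell type were fitted as log2(score + 1) in limma 3.58.1 (R 4.3.3) with 4 group means and an intensity trend in empirical Bayes. Calls needed a 2-fold change and a Benjamini-Hochberg adjusted p under 0.05 over all genes tested, two-sided. Each sample pooled islets of several mice by the study's methods, and the fit treats all samples as independent. On simulated data the fit recovered 55.6%, 78.4%, and 93.7% of genes changed by 1.5, 2, and 3 on the log2 scale, with 9 false calls among 13286 genes. The changes were placed in 1wk WD ECs alone, in genes well above the minimum mean of 20 in both cell types. Noise was drawn independently for each gene and sample. Rates for low scores, or with effects shared across genes or samples such as acinar RNA and GC content, were not tested. Members and gene lists were chosen with earlier results of these data known. Named genes were, per class, the 4 largest differences among uniquely named genes whose groups did not overlap in the called cell type (for shared genes, the largest smaller response), list members with the difference called, *Kdr*, *Vegfa*, *Pecam1*, and *Itgam*, and up to 4 leading members of each list described. Some results under this rule are not reported here. GC content, transcript length, and gene span came from GENCODE M1 (mm9), with 22799 gene IDs matched. Promoters came from RefSeq on GRCm38.p6. Alternatives changed the pseudocount, filter, scaling, spread model, thresholds, replicate block, and samples. The fits without both No Dox replicate 2 libraries, within 8-fold, in one cell type alone, and with GC content or gene length regressed out were chosen after seeing the data. Python 3.11.15, pandas 2.3.3, numpy 2.4.6, and matplotlib 3.10.9 were used.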

Additional observations from a re-analysis of the deposited data

Results flagged for a closer look

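The withdrawal response of 219 genes differed between ECs and MΦs by the test of the difference itself. Of the genes given above under the naming rule, those with the EC response higher were *Gria2* (5.19), *Maob* (4.05), *Olfr458* (3.84), *Vipr2* (3.80), *Gnai1* (3.73), *Glipr2* (3.14), *Fam189a2* (2.73), *Leprel1* (2.55), *Negr1* (2.49), *Tgfbi* (2.33), *Vwf* (1.92), *Zfp599* (1.76), *Smad1* (1.23), and *Jag1* (1.15), with the log2 difference in parentheses. Those with the MΦ response higher were *Adamtsl2* (-4.29), *Phlda3* (-2.88), *Exoc3l2* (-2.87), *F7* (-2.49), *Snai2* (-2.48), *Lamb2* (-2.15), *Sema6d* (-2.13), *Jag2* (-1.77), *Ier3* (-1.55), *Cdkn1a* (-1.51), *Adamts7* (-1.504), *Ptgs1* (-1.46), *Ltbp4* (-1.41), *Gbp2* (-1.38), *Stab1* (-1.29), *Sema7a* (-1.18), *Ccnd1* (-1.17), *Itga9* (-1.17), *Nrp1* (-1.15), *Tgm2* (-1.13), *Psmb8* (-1.13), *Slc2a1* (-1.10), *Lamp1* (-1.09), and *Grn* (-1.07). Genes chosen after their values were seen are not in these lists. *Gria2*, *Maob*, *Glipr2*, and *Negr1* in ECs and *Adamtsl2*, *Phlda3*, *Exoc3l2*, *F7*, and *Snai2* in MΦs had No Dox means under the minimum of 20 and were tested through 1wk WD, where they were high.

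Some samples stood apart from the others of their group by Dixon's test, in 8 of 180 gene groups and 4 of 20 marker groups, where chance gives about 1 in 20. Among scores these were *Snai2* in No Dox EC replicate 1 (1902), *Olfr458* and *Zfp599* in No Dox EC replicate 3 (8 and 88), *D0H4S114* in No Dox EC replicate 3 (3182) and 1wk WD MΦ replicate 1 (218), *Gria2* in No Dox EC replicate 2 (24), *Ptgs1* in 1wk WD EC replicate 1 (5189), and *Pecam1* in 1wk WD MΦ replicate 1 (2212). Mean log2 scores of marker lists stood apart for macrophage markers in 1wk WD EC replicate 5 (4.67) and for acinar markers in No Dox EC replicate 2 (15.53), 1wk WD EC replicate 1 (10.71), and 1wk WD MΦ replicate 1 (12.31).

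The samples taken after 1 week of Dox, with no withdrawal, 1 of ECs and 2 of MΦs, entered one alternative fit, with 303 differences, and no comparison of the report. They were looked at for *Vcam1*, *Igf1*, *D0H4S114*, *Kdr*, *Vegfa*, and *Pecam1* alone. Among these genes, all scores lay above every No Dox score of the same cell type for *Vcam1* in MΦs (lowest score 15948), *Igf1* in ECs (7382) and MΦs (8551), and *Pecam1* in ECs (76505) and MΦs (1578). *Vcam1* scored 122 in the EC sample, below every No Dox EC score. These values share their No Dox samples with the withdrawal comparison, and no difference was tested.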

How the results depend on the processing

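Another pseudocount, median-of-ratios or quantile scaling, and an untrended spread left all 6 counts within 1.5 times their value, with 175 to 269 differences. Without the filter on low scores the counts were 100 differences, 74 EC, 118 MΦ, 1 shared, 28 opposite, and 35 one-sided responses. With a minimum mean of 200 the MΦ count was 120 and the shared count 7. Weights by cell type gave 242 EC and 60 MΦ calls, and fits of one cell type alone 220 and 29. The adjusted p alone gave 349 differences, 268 EC, 377 MΦ, 8 shared, and 199 one-sided responses. The unadjusted p gave 1166, 503, 719, 77, and 413 of these and 332 opposite. Within 8-fold between cell types there were 138 differences, 54 EC, 105 MΦ, 1 shared, and 34 one-sided. On leaving out 1 library, differences ran from 101 to 385, EC calls from 53 (without No Dox EC replicate 3) to 179 (No Dox MΦ replicate 3), MΦ calls from 67 (1wk WD MΦ replicate 2) to 277 (No Dox MΦ replicate 1), shared from 2 (No Dox EC replicate 1) to 25 (1wk WD MΦ replicate 1), opposite from 29 (No Dox EC replicate 3) to 125 (1wk WD EC replicate 2), and one-sided from 31 (No Dox EC replicate 3) to 114 (No Dox MΦ replicate 1). Differences also left the 1.5-fold range without No Dox EC replicate 2 (143), 1wk WD EC replicate 2 (379), or 1wk WD MΦ replicate 2 (131) or 3 (122). GC content regressed out alone gave 194 differences, 145 of them among the 219. With length and span the split became 84 higher and 95 lower, against 127 and 92. Replicate numbers were not taken as pairs, since the deviations of same-numbered EC and MΦ samples correlated from -0.16 to 0.45. In 5 of the 8 pairs the EC sample correlated best with the MΦ sample of its own number, among the 4 of its time. Shared pools were not tested, and the fit treats all samples as independent. A replicate block gave 240 differences, and a block within the time point 318 differences and 98 opposite responses. Only uncalled differences changed sign. That of *D0H4S114* was -0.091 and -0.087 with GC content regressed out, alone and with length and span, and ran from -0.0071 (without 1wk WD MΦ replicate 1) to 0.30 on leaving out 1 library. That of *Igf1* was -0.074 without both No Dox replicate 2 libraries, -0.38 and -0.46 with GC content regressed out, alone and with length and span, and -0.14 to 0.23 on leaving out 1 library. That of *Vegfa* was -0.012 with quantile normalization, -0.04 with the replicate block, -0.19 without both libraries, and -0.29 to 0.24 on leaving out 1. Of 1378 values of 45 named genes, 1103 kept side and direction, 257 lost a call, and 18 changed sign. Of 38 genes with the difference called, 22 lost the call without the filter on low scores, 13 with an untrended spread, 13 without both No Dox replicate 2 libraries, 11 with GC content regressed out, 7 with a replicate block, and 1 (*Nrp1*, -0.94) with quantile normalization. The 7 lost with the replicate block were *Adamtsl2*, *Fam189a2*, *Gbp2*, *Jag2*, *Ltbp4*, *Olfr458*, and *Zfp599*. Causes were not tested. Depth is unknown, which limits what low scores show.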

Other observations

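Beyond *Ccnd1* and *Cdkn1a*, which are not in the cell cycle list, proliferation and clock genes have not been described so far. Of 39 cell cycle genes tested 0 were called in either response or in the difference in limma, with 1 higher and 4 lower in ECs and 4 higher in MΦs at an unadjusted p under 0.05, and medians of -0.12 and 0.18. Of all genes 1.00%, 1.35%, and 1.64% were called in these, and 8.78%, 7.55%, and 8.97% passed the unadjusted p. Of 19 clock genes tested, 1 fell and 0 rose in ECs in limma, against 0.149% and 0.852% of all genes, and 0 were called in MΦs, against 1.35%. At an unadjusted p under 0.05, 7 were lower and 1 higher in ECs, against 7.55% and 8.78%, and 2 were lower in MΦs, against 10.3%. The list medians were -0.34 in ECs and -0.2 in MΦs. *Dbp*, a clock-controlled transcription factor, fell in ECs by -1.74 on the log2 scale (SE 0.33, adjusted p = 0.0118), from between 514 and 849 to between 97 and 327, and its MΦ response was -0.40 (SE 0.35). *Cx3cl1*, the membrane-bound ligand of the macrophage receptor CX3CR1, fell in ECs by -1.004 (SE 0.23, adjusted p = 0.0315). For neither *Dbp* nor *Cx3cl1* was the difference between cell types called.

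Of 28 growth factors tested, 2 rose (*Igf1* and *Hbegf*) and 1 fell (*Fgf2*) in MΦs, against 0.814% and 0.538% of all genes. *Hbegf*, an EGF receptor ligand, scored 74, 217, 137, and 59 at No Dox and 244, 344, 469, and 184 at 1wk WD, a response of 1.44 (SE 0.37, adjusted p = 0.0441). *Fgf2* scored from 316 to 380 and then from 100 to 257, a response of -1.22 (SE 0.27, adjusted p = 0.023). *Cyr61*, an immediate early matricellular protein, rose in MΦs by 1.53 (SE 0.39, adjusted p = 0.0419). Their EC responses were -0.42, -0.07, and 0.03.

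Erythroid and platelet markers in MΦs summed to 821 to 1572 at No Dox and 3085 to 3830 at 1wk WD. Of 6 tested, 0 were called in MΦs in limma, against 1.35% of all genes, and 4 were higher at an unadjusted p under 0.05, against 8.97%. Among these 4 were *Hbb-b1*, a globin, at 2.50 (SE 0.70, adjusted p = 0.0609), and *Ppbp*, a platelet chemokine, at 2.90 (SE 0.82, adjusted p = 0.0643). *Hbb-b1* and *Hbb-b2* are near-identical, and their separate values are uncertain.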
